A study of Mus musculus with 4 samples.

Results

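The 7 genes described here, *Mertk*, *Axl*, *Gas6*, *Pros1*, *Timd4*, *Stab1* and *Cd163*, were taken for their roles in the clearance of dying cells, out of 30905 genes in the deposited matrix. The choice was by role and symbol, made with earlier results of these data known. They were followed across the cells of 4 transplanted mouse hearts profiled by droplet single-cell RNA sequencing. Hearts were placed in the abdomen of C57BL/6J recipients, in 2 cases from BALB/c donors (allogeneic) and in 2 cases from C57BL/6J donors (syngeneic), and were collected 5 days after transplantation. Donors and recipients were males aged 8 to 10 weeks, no drug or engineered allele was given for either group, and the day 5 time point and the recipient strain were shared by all grafts. Whole grafts were digested with enzymes and red cells were lysed, with no sort, so both donor cells of the graft and recipient cells that had entered it were captured. The deposited matrix pools all cells, each barcode ends in a number from 1 to 4, and no label pairs that number with a graft. The numbers are therefore called libraries 1 to 4, the matrix counts as 1 sample, and no comparison of the graft types was made. Values by library stand side by side without a test, and every interval covers counting error only.

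Uptake of apoptotic cells rests on receptors that recognise phosphatidylserine on the dying cell, either directly or through a bridging protein. MERTK and AXL are receptor tyrosine kinases of the TAM family, and GAS6 and protein S, the product of *Pros1*, are their bridging ligands, made active by vitamin K dependent carboxylation. TIM-4, the product of *Timd4*, binds phosphatidylserine directly and marks some resident macrophages. Stabilin-1 is a scavenger receptor of macrophages and of sinusoidal and lymphatic endothelium, and CD163 takes up haemoglobin bound to haptoglobin. In the heart, resident macrophages are known for clearing dying cardiomyocytes and their debris. Of the 7 genes, *Gas6* and *Pros1* thus encode ligands rather than receptors.

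On the mouse assembly GRCm38, with gene spans from GENCODE M21, *Mertk* (ENSMUSG00000014361) lies on the plus strand at chr2:128698956-128802894 and *Axl* (ENSMUSG00000002602) on the minus strand at chr7:25757273-25788705. *Gas6* (ENSMUSG00000031451) lies on the minus strand at chr8:13465374-13494490 and *Pros1* (ENSMUSG00000022912) on the plus strand at chr16:62854307-62929346. *Timd4* (ENSMUSG00000055546) spans chr11:46810800-46844332 on the plus strand, *Stab1* (ENSMUSG00000042286) spans chr14:31139013-31168641 on the minus strand, and *Cd163* (ENSMUSG00000008845) spans chr6:124304656-124330527 on the plus strand. *Gas6* and *Stab1* overlap *Tmem255b* and *Nt5dc2* on the opposite strand. The strand setting of the counting is not given in the sources used here, so reads from the overlapping parts could have been assigned to either gene.

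The 250 bases upstream of the start of transcription are shown for 4 of the genes, chosen for where they were found. *Axl* and *Gas6* had most of their UMIs in fibroblast-like cells and *Cd163* in macrophage-like cells, while *Stab1* was highest in lymphatic-like endothelial cells. All 7 genes were matched to RefSeq promoters of GRCm38.p6. The sequences read 5′ to 3′ on the strand of the gene, and capitals mark matches on either strand to any of 8 motifs searched. These were the GC box with the letters GGGCGG, the AP-1 motif read as TGANTCA, the core of the Maf motif read as TGCTGA and the PU.1 motif read as GAGGAAGT. The others were the interferon response element (GAAA, any 2 bases, then GAAA), the STAT motif read as TTCNNNGAA, the E box read as CACGTG and the TATA box with the letters TATAAA.
*Axl*, chr7:25788734-25788983, minus strand: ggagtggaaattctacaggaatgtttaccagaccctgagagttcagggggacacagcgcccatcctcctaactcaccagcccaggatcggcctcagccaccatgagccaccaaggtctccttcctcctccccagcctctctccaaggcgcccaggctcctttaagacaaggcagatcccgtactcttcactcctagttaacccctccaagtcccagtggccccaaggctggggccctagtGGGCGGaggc
*Gas6*, chr8:13494536-13494785, minus strand: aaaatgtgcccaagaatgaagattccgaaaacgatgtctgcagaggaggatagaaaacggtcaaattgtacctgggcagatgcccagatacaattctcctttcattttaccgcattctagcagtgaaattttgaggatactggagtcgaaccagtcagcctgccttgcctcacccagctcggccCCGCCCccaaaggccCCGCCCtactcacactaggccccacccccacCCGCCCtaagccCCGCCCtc
*Stab1*, chr14:31168642-31168891, minus strand: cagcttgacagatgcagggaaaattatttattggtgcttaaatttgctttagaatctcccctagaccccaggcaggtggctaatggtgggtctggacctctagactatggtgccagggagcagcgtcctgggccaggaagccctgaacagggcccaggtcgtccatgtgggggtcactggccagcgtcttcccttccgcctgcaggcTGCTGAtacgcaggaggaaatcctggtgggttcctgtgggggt
*Cd163*, chr6:124304401-124304650, plus strand: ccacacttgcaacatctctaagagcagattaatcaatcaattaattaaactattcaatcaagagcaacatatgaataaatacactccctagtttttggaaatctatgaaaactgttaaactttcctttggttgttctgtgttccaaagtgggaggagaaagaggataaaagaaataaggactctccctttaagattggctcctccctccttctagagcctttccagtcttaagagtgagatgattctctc

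The windows of *Axl* and *Gas6* were 60.0% and 54.8% G or C, that of *Stab1* was 57.2%, and that of *Cd163* was 36.8% with 0 CpG dinucleotides, against medians of 52.4% and 6 CpG over 32851 promoters. The GC box was present once in *Axl*, 4 times in *Gas6*, 3 times in *Mertk* and 5 times in *Pros1*, some of which share bases, and 32.7% of promoters held it. The Maf core matched once in *Stab1*, and 2 times in *Timd4*, against 16.1% of promoters. *Pros1* alone of the 7 held the STAT letters, which 7.02% of promoters held. The window of *Cd163* held none of the 8 motifs. The other 5 motifs matched in none of the 7 windows, and were held by 6.75% (AP-1), 2.44% (PU.1), 2.98% (interferon response element), 6.02% (E box) and 12.4% (TATA box) of promoters.

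The matrix held 13112 to 13907 cells and 96020294 to 166079145 UMIs per library, and 42395 of 53824 cells were kept. Kept cells had a median of 4571.5 to 11897 UMIs in the 4 libraries, and 308 of 53516 barcode sequences occurred in more than 1 library (186 of them among kept cells). Clusters were named only from fixed marker lists, with the 7 genes left out of the clustering, and 23 of 27 clusters received 1 of 11 class names, while 4 clusters with 4786 cells stayed unnamed. Libraries differed in their cells: library 4 held 5892 of the 8562 macrophage-like cells but 633 of the 13743 endothelial-like cells. Levels are given as CPM, the summed UMIs of a gene per 1000000 UMIs of all nuclear-encoded genes in the group, with the exact Poisson 95% interval where it is printed. A 3′ assay counts 1 end of each transcript, so CPM are not divided by length.

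The receptors, ligands and scavenger receptors were spread over different cell classes. *Cd163* had 92.0% of its UMIs in macrophage-like cells, and 89.2% to 92.3% in each library. *Mertk* had 52.4% and *Stab1* 53.2% of their UMIs in macrophage-like cells when libraries were pooled, but this order rested on some libraries. For *Mertk* the macrophage-like share was 21.9%, 28.2%, 35.8% and 91.6% in libraries 1 to 4, against 39.3%, 34.9%, 37.1% and 3.43% in endothelial-like cells, which led in every library but library 4. For *Stab1* endothelial-like cells led in library 1 (53.8% against 33.0%) and were close in library 2 (39.9% against 39.6%), while macrophage-like cells led in libraries 3 and 4. Macrophage-like cells held 136 of the 212 *Timd4* UMIs, although 97 and 20 of the 212 fell in conventional and mature dendritic-like clusters once the myeloid cells were clustered again. *Axl* and *Gas6* had 67.7% and 65.0% of their UMIs in the 5757 fibroblast-like cells, which led in each library. *Pros1* was shared by endothelial-like cells (40.8%) and fibroblast-like cells (37.9%) when libraries were pooled. Endothelial-like cells led in libraries 2 and 3, and fibroblast-like cells in library 1 (44.4% against 40.5%). In library 4 fibroblast-like cells held 34.1%, macrophage-like cells 31.0% and endothelial-like cells 27.9%. These shares depend on how many cells of each class were captured, and in a pool of cells a lower share cannot be told apart from fewer cells of the class. In all kept cells the genes had 10555 (*Mertk*), 46950 (*Axl*), 79376 (*Gas6*), 26774 (*Pros1*), 212 (*Timd4*), 34824 (*Stab1*) and 3580 (*Cd163*) UMIs.

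**Figure D1:**
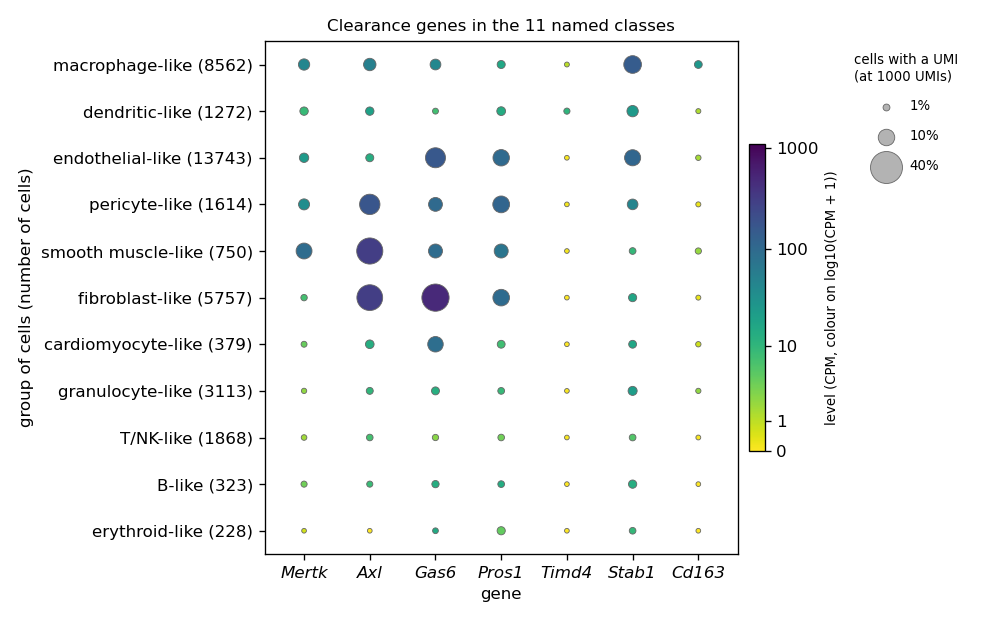
Each dot is 1 of the 7 genes (columns) in 1 of the 11 named classes (rows, with the number of cells), its colour giving the level in CPM on a log scale and its area the percent of cells with a UMI after thinning to 1000 UMIs. The darkest dots are *Gas6* and *Axl* in fibroblast-like and *Axl* in smooth muscle-like cells, and *Cd163* stands at 25.9 CPM in macrophage-like cells against 2.19 CPM or less in the other classes.

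For *Mertk*, the receptor known from macrophages, the level was 43.6 CPM (42.5 to 44.8) in macrophage-like cells, but the 750 smooth muscle-like cells had 93.2 CPM (86.8 to 99.9). Pericyte-like cells followed at 35.0 CPM (32.3 to 38.0) and endothelial-like cells at 24.0 CPM, with fibroblast-like cells at 7.02 CPM and dendritic-like cells at 8.89 CPM. The intervals of smooth muscle-like, macrophage-like and pericyte-like cells did not overlap, so this order was larger than counting error. Markers of macrophages stood at 0.838% of their macrophage level in smooth muscle-like cells, a share that would carry 0.365 CPM of *Mertk*. In libraries 1, 2, 3 and 4, smooth muscle-like cells had 136, 102, 54.2 and 23.4 CPM of *Mertk* (library 4 with 12 cells), and macrophage-like cells had 73.1, 34.0, 60.0 and 40.2 CPM. Smooth muscle-like cells were above macrophage-like cells in libraries 1 and 2. Their values were lower in libraries 3 and 4, but there the counting intervals of the classes overlapped. The higher level in smooth muscle-like cells was therefore beyond counting error in libraries 1 and 2 only.

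*Axl*, the other TAM receptor, was at 304 CPM (301 to 307) in fibroblast-like cells and 310 CPM (299 to 322) in smooth muscle-like cells, whose intervals overlapped. Pericyte-like cells had 170 CPM, macrophage-like cells 52.0 CPM (50.7 to 53.3) and endothelial-like cells 13.1 CPM. Fibroblast-like cells had 324, 310, 271 and 344 CPM of *Axl* in libraries 1 to 4, a ratio of 1.26 between the highest and lowest library, and 87.3% of genes in these cells varied at least as much. Macrophage-like cells had 142, 16.3, 110 and 41.1 CPM, high in libraries 1 and 3 and low in library 2. There the ratio between highest and lowest library was 5.80, reached by 3.41% of genes.

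*Gas6*, the ligand with the highest level of the 7 genes in a single class, was at 494 CPM (489 to 498) in fibroblast-like cells. Endothelial-like cells had 164 CPM (161 to 166), and pericyte-like, smooth muscle-like and cardiomyocyte-like cells had 98.1, 93.1 and 90.1 CPM. Macrophage-like cells had 41.6 CPM (40.5 to 42.8), and their fibroblast markers, with libraries pooled, stood at 0.976% of the fibroblast level, a share that would carry 4.82 CPM of *Gas6*. In library 4 *Gas6* was at 2.12 CPM in macrophage-like and 138 CPM in fibroblast-like cells, with fibroblast markers at 357 and 24932.5 CPM. In library 3 macrophage-like cells had 245 CPM of *Gas6*, with fibroblast markers at 765 CPM against 47596 CPM in fibroblast-like cells. The part of fibroblast RNA in each library was not tested. The classes differed in level, and within each class the libraries differed as well.

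*Gas6* also differed between libraries in each of the main classes. Fibroblast-like cells had 759, 270, 567 and 138 CPM in libraries 1 to 4, endothelial-like cells had 208, 85.2, 235 and 24.0 CPM, and macrophage-like cells had 162, 11.6, 245 and 2.12 CPM. In each of these classes libraries 1 and 3 were high, library 2 was lower and library 4 was lowest. Pericyte-like cells had 128, 42.9 and 136 CPM in libraries 1 to 3, and 5.74 CPM in the 42 cells of library 4. With 10 CPM added, the highest library exceeded the lowest by 21.0 in macrophage-like, 7.23 in endothelial-like and 5.21 in fibroblast-like cells. Ratios as large were found for 0.726%, 1.53% and 4.86% of genes in these classes, while a ratio of 2 or more was found for 24.6%, 21.3% and 34.0% of genes. Which graft each library came from, cell state and depth could move with these values, and their part was not tested.

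*Pros1*, which encodes protein S, was at 115 CPM (110 to 120) in pericyte-like, 101 CPM in endothelial-like, 97.2 CPM in fibroblast-like and 70.6 CPM in smooth muscle-like cells, with 15.8 CPM in macrophage-like cells. Unlike *Gas6*, it varied little between libraries in endothelial-like cells, with 97.4, 107, 97.1 and 99.8 CPM, and 97.0% of genes varied at least as much. In fibroblast-like cells it was highest in library 2 (125 CPM) and lowest in library 4 (68.5 CPM). In macrophage-like cells it was at 40.4, 18.1, 34.7 and 10.3 CPM, again higher in libraries 1 and 3 than in libraries 2 and 4. In smooth muscle-like cells it was low in library 1 (32.0 CPM) and higher in libraries 2 and 3 (108 and 60.5 CPM), whereas *Gas6* there was lowest in library 2 of these (115, 49.9 and 126 CPM).

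*Timd4* was the least abundant of the 7 genes, and its highest class level was in the class named dendritic-like. The 1272 dendritic-like cells had 10.4 CPM (7.98 to 13.4), against 1.07 CPM in macrophage-like cells, and no other class exceeded 0.117 CPM among endothelial-like, fibroblast-like, pericyte-like and smooth muscle-like cells. This class was shallow and mixed, with a median of 1211 UMIs, 1103 of its cells from library 4, and erythroid markers summing to 26352 CPM against 1663 CPM for dendritic markers, so its level is not that of dendritic cells alone. Its *Timd4* was at 4.92, 61.6, 17.3 and 6.23 CPM in libraries 1 to 4, the value of library 2 resting on 26 cells.

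With libraries pooled, both scavenger receptors were highest in macrophage-like cells among the named classes but differed outside them. *Stab1* was at 146 CPM (144 to 148) in macrophage-like and 112 CPM in endothelial-like cells, then 44.9 CPM in pericyte-like, 24.5 CPM in dendritic-like, 21.8 CPM in granulocyte-like and 16.9 CPM in fibroblast-like cells. *Cd163* was at 25.9 CPM (25.1 to 26.8) in macrophage-like cells and 1.6 CPM in endothelial-like cells. Macrophage-like cells had 330, 181, 533 and 58.9 CPM of *Stab1* in libraries 1 to 4, and 32.4, 186, 18.1 and 0.368 CPM of *Cd163*. *Stab1* was thus highest in library 3, *Cd163* was highest in library 2, and both were lowest in library 4. The ratios between highest and lowest library were 7.88 for *Stab1* and 18.9 for *Cd163*, found for 2.41% and 0.811% of genes. In endothelial-like cells *Stab1* kept a narrower range of 133, 76.8, 128 and 116 CPM. In library 4 it was thus higher in endothelial-like cells (116 CPM) than in macrophage-like cells (58.9 CPM). When endothelial-like cells were clustered again, 618 of the 633 cells of library 4 fell in an interferon-marked cluster with 79.9 CPM of *Stab1*. Another 11 fell in the lymphatic-like cluster, at 1034 CPM over all libraries. The part of these 11 cells in the value of library 4 was not tested.

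**Figure D2:**
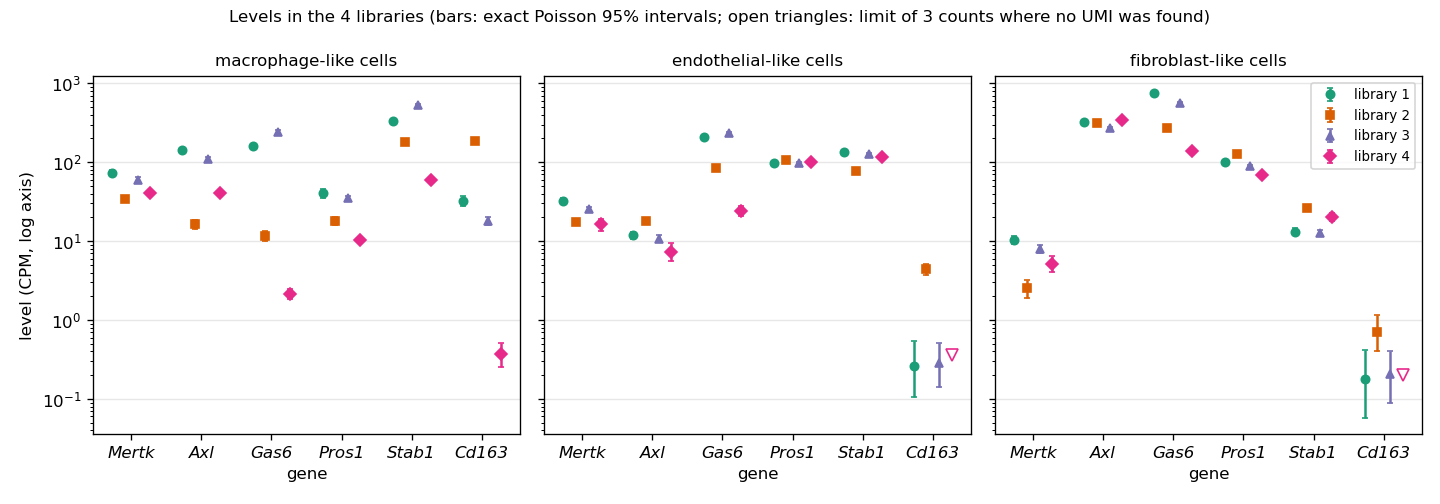
Level of the 7 genes except *Timd4* (CPM, log axis) in macrophage-like, endothelial-like and fibroblast-like cells, each point being 1 of libraries 1 to 4 with its exact Poisson 95% interval, and open triangles the limit of 3 counts where no UMI was found. *Gas6* is lowest in library 4 in macrophage-like, endothelial-like and fibroblast-like cells (2.12, 24.0 and 138 CPM), whereas *Pros1* in endothelial-like cells spans 97.1 to 107 CPM.

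Pericyte-like cells carried endothelial markers at 55.6% of the endothelial level, a share that would carry 62.2 CPM of *Stab1*, 91.1 CPM of *Gas6* and 56.0 CPM of *Pros1*, against the 44.9, 98.1 and 115 CPM measured. Their *Axl* and *Mertk*, at 170 and 35.0 CPM, compare with 7.29 and 13.3 CPM at that share. The part of endothelial RNA or doublets in the *Stab1* and *Gas6* values of pericyte-like cells was not tested.

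Each class was set against all other kept cells, calling a gene higher where the ratio of CPM, with 10 CPM added to both, was 2 or more. In macrophage-like cells 3 of the 7 genes were higher, *Cd163* (ratio 3.28), *Stab1* (2.42) and *Mertk* (2.00, at the threshold itself), beside 9.02% of the genes tested. Another 3, *Axl*, *Gas6* and *Pros1*, were lower, beside 20.2% of genes. In fibroblast-like cells *Axl* (5.48) and *Gas6* (5.22) were higher, beside 9.68% of genes, and *Mertk*, *Stab1* and *Cd163* were lower, beside 13.5%. In endothelial-like cells 0 were higher, beside 9.99% of genes, and *Axl* was lower, beside 12.4%. In pericyte-like and smooth muscle-like cells together 0 were higher, beside 7.23% of genes, although *Axl* (1.997) and *Mertk* (1.96) lay just under the threshold, and *Stab1* was lower, beside 8.81%. With 1 pooled sample these counts have no replicate check. The count in endothelial-like cells was 1 without library 1, 2 or 3, beside 10.6%, 10.9% and 10.6% of genes. There *Pros1* reached 2.03, 2.00 and 2.04. The count in macrophage-like cells was 1 without library 3, beside 8.92% of genes. It was 2 with resolutions 0.4 and 0.3 (9.02%), 20 principal components (8.80%), at least 1000 UMIs per cell (9.11%) or doublets kept (8.80%). It was also 2 without library 2 (9.18%) and with cells thinned to 1000 UMIs (8.48%). In pericyte-like and smooth muscle-like cells the count was 1 without library 1 (beside 7.72%) or library 4 (5.14%) and 2 without library 3 (8.46%).

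The 9834 myeloid cells were clustered again, and 2 clusters were named from resident macrophage markers. Among the 15 clusters *Gas6* and *Stab1* were highest in the first, cluster 4, and *Cd163* was highest in the second, cluster 11. Cluster 4 held 1267 cells, 320 of library 1 and 942 of library 3, and was rich in *Trem2* (828 CPM) and the chemokine receptor *Cx3cr1* (383 CPM), with the resident marker *Lyve1* at 7.30 CPM. Cluster 11 held 146 cells, 141 of them of library 2, with *Lyve1* at 320 CPM and the transglutaminase *F13a1* at 2398 CPM. The clusters therefore differ in library as well as in markers, and these cannot be told apart. Although the 7 genes were left out of the clustering, their correlates were not, so their levels in clusters are a description.

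In cluster 4 *Stab1* was at 527 CPM (516 to 538), *Gas6* at 251 CPM (244 to 259), *Axl* at 133 CPM, *Mertk* at 73.3 CPM, *Pros1* at 37.0 CPM, *Cd163* at 25.7 CPM and *Timd4* at 2.47 CPM. *Gas6* was among the 10 genes that led this cluster, and its fibroblast markers stood at 1.80% of the fibroblast level, which would carry 8.88 CPM of *Gas6*. In cluster 11 *Cd163* was at 811 CPM (773 to 851), *Stab1* was at 471 CPM, *Axl* at 77.2 CPM, *Mertk* at 76.3 CPM, *Gas6* at 74.8 CPM, *Pros1* at 51.6 CPM and *Timd4* at 11.1 CPM. *Gas6* was thus higher in cluster 4, and *Cd163* was higher in cluster 11.

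**Figure D3:**
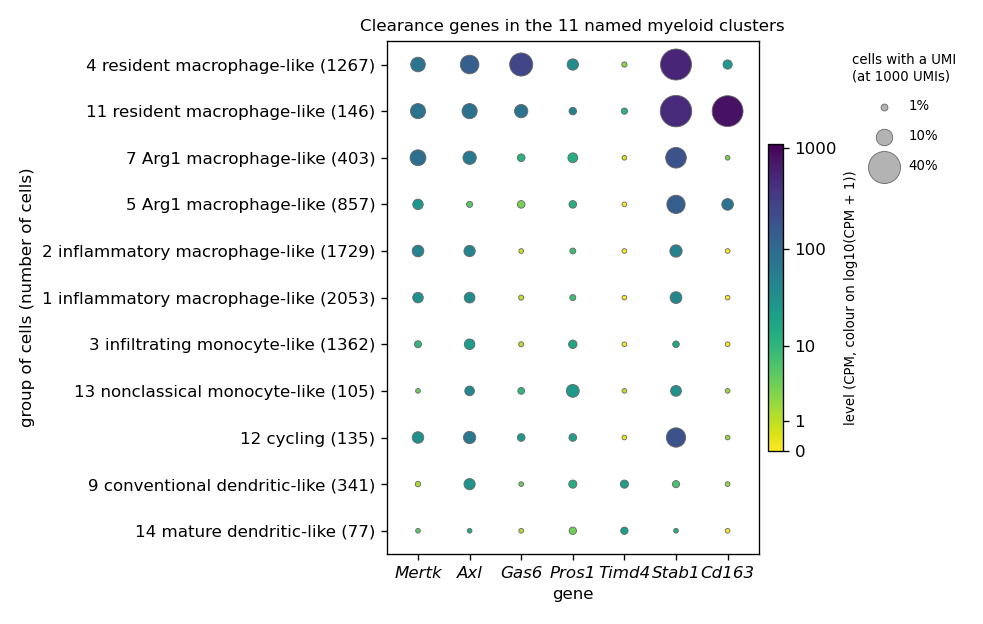
Each dot is 1 of the 7 genes (columns) in 1 of the 11 named myeloid clusters (rows, with the number of cells), its colour giving the level in CPM on a log scale and its area the percent of cells with a UMI after thinning to 1000 UMIs. Among these clusters *Gas6* and *Stab1* are highest in resident macrophage-like cluster 4 (251 and 527 CPM) and *Cd163* in cluster 11 (811 CPM), while inflammatory macrophage-like clusters 1 and 2 have 0 *Cd163* UMIs.

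Macrophage clusters of library 4 had the TAM receptors with little *Gas6*. Cluster 7, with 403 cells named from *Arg1* macrophage markers and led by *Ccl8*, *Fcgr4* and *C1qc*, had 87.7 CPM (82.1 to 93.6) of *Mertk*, 62.1 CPM of *Axl* and 186 CPM of *Stab1*, but 11.4 CPM of *Gas6* and 3.23 CPM of *Cd163*. Inflammatory macrophage-like clusters 2 and 1 had 48.0 and 33.1 CPM of *Mertk*, 45.0 and 36.9 CPM of *Axl*, and 0.695 and 0.962 CPM of *Gas6*. Their *Stab1* was at 53.2 and 40.5 CPM, and *Cd163* had 0 UMIs in both. Infiltrating monocyte-like cluster 3, with 1362 cells all of library 4, had 9.83 CPM of *Mertk*, 23.3 CPM of *Axl*, 1.11 CPM of *Gas6*, 17.3 CPM of *Pros1*, 15.8 CPM of *Stab1* and 0 UMIs of *Cd163*. The nonclassical monocyte-like cluster 13 (105 cells) had 3.72 CPM of *Mertk* and 40.9 CPM of *Axl*. *Mertk* was thus lower in both monocyte clusters than in any of these macrophage clusters.

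The second *Arg1* cluster, cluster 5, came almost wholly from library 2 (830 of 857 cells). It had 79.1 CPM of *Cd163* and 140 CPM of *Stab1*, with 27.7 CPM of *Mertk*, 5.28 CPM of *Axl* and 3.34 CPM of *Gas6*. Its granulocyte markers summed to 5296 CPM, against 125 CPM in cluster 4 and 163 CPM in cluster 7. Granulocyte-like cells had less *Cd163* (2.19 CPM), *Stab1* (21.8 CPM) and *Mertk* (2.19 CPM) than cluster 5, but more *Axl* (10.3 CPM) and *Gas6* (12.6 CPM). The part of granulocyte RNA in the values of cluster 5 was not tested. *Timd4* was highest in the dendritic-like clusters, at 20.6 CPM (16.7 to 25.1) in 341 conventional dendritic-like cells and 23.4 CPM (14.3 to 36.1) in 77 mature dendritic-like cells, whose intervals overlapped. Its UMIs lay in 22 and 7 of these cells, so both levels rest on a small part of each cluster. Conventional dendritic-like cells had 1.49 CPM of *Mertk*. Unnamed cluster 10, of 157 shallow cells with fibroblast and cardiomyocyte genes, had 195 CPM of *Gas6*, 360 CPM of *Stab1* and 152 CPM (106 to 211) of *Axl*, an interval that holds the *Axl* level of cluster 4.

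Against the monocyte-like cluster, 5 of the 7 genes were higher in the 1413 resident macrophage-like cells, beside 9.45% of the genes tested, and none was lower, beside 7.86%. *Gas6* had a ratio of 21.9, *Stab1* of 20.6, *Cd163* of 11.8, *Mertk* of 4.21 and *Axl* of 4.12, all with 10 CPM added, and *Pros1* had 1.78. Since *Cd163* had 0 UMIs in the monocytes, its CPM was at least 584-fold higher against a floor of 3 counts over the group. This value rested on cluster 11, of library 2: with cluster 4 alone, an alternative chosen after seeing the data, the *Cd163* ratio was 3.57 and the level at least 140-fold higher, and with cluster 11 alone the ratio was 82.1. Of the 7 genes, 6 reached 10 CPM in either group, *Gas6*, *Cd163* and *Mertk* in the resident macrophage-like cells alone. Their higher level there let these 3 pass the filter. The median log2 ratio of the 6 genes, 2.82 against 0.03 over all genes tested, is therefore a description. Against the 3782 inflammatory macrophage-like cells, 5 were higher as well, beside 7.57% of genes: *Gas6* (22.5), *Cd163* (11.8, at least 2105-fold against the floor), *Stab1* (9.27), *Pros1* (2.75) and *Axl* (2.67). With cluster 4 alone *Cd163* had a ratio of 3.57 here as well, and with cluster 11 alone *Axl* had 1.70. None was lower, beside 6.09% of genes, and *Mertk* had a ratio of 1.64.

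These comparisons set cells of libraries 1 and 3 in cluster 4, and of library 2 in cluster 11, against cells of library 4, so cell state and library cannot be told apart. The name of cluster 4 was also not stable. With other resolutions, 20 principal components, higher minimums of genes or UMIs, or without library 1, 3 or 4, the clusters named resident held 141 to 272 cells, nearly all of library 2, and the values of cluster 4 then belonged to clusters of another name or of none. Without library 2 no cluster was named resident, and without library 4 no cluster was named monocyte. Without library 4 the count over inflammatory macrophage-like cells was 3, beside 6.42% of genes, with *Axl* at a ratio of 0.384. *Axl* was at 1.54 and 1.82 without library 1 and library 3.

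When endothelial-like cells were clustered again, *Stab1* was highest in the 174 lymphatic-like cells, at 1034 CPM (994 to 1076). It was at 989 CPM in the 85 cells of library 1 and 1109.8 CPM in the 75 cells of library 3. These cells also had 202 CPM of *Pros1* and 231 CPM of *Gas6*. An unnamed cluster of 209 cells, with *Npr3* and *Cdh11* among its leading genes, had *Gas6* at 350 CPM, *Stab1* at 261 CPM and *Pros1* at 150 CPM. Its venous markers summed to 4207 CPM and its endocardial markers to 2288 CPM. *Mertk* was highest in the 281 arterial-like cells, at 50.8 CPM (43.0 to 59.7), with 56.1, 20.4 and 61.5 CPM in libraries 1 to 3. The interferon-marked endothelial cluster of 622 cells, found in library 4, had 24.3 CPM of *Gas6*, and the capillary-like clusters of library 2 had 81.1 and 96.5 CPM. Clusters 1, 3, 4 and 5, unnamed and nearly all of libraries 1 and 3, had 200, 223, 260 and 243 CPM. Their capillary markers summed to 3170 to 4539 CPM, against 5967 and 8010 CPM in the capillary-like clusters. Unnamed clusters 8 and 9, of library 2, had 97.6 and 96.8 CPM of *Axl* and 33.5 and 24.6 CPM of *Cd163*. Granulocyte markers summed to 22476 and 21170 CPM in these, against 67.3 CPM in the *Npr3* cluster. Fibroblast markers summed to 3349 and 3070 CPM in clusters 8 and 9, and macrophage markers to 1831 and 1731 CPM. Granulocyte-like cells themselves had 10.3 CPM of *Axl* and 2.19 CPM of *Cd163*. The part of RNA from these classes in the values of clusters 8 and 9 was not tested.

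**Figure D4:**
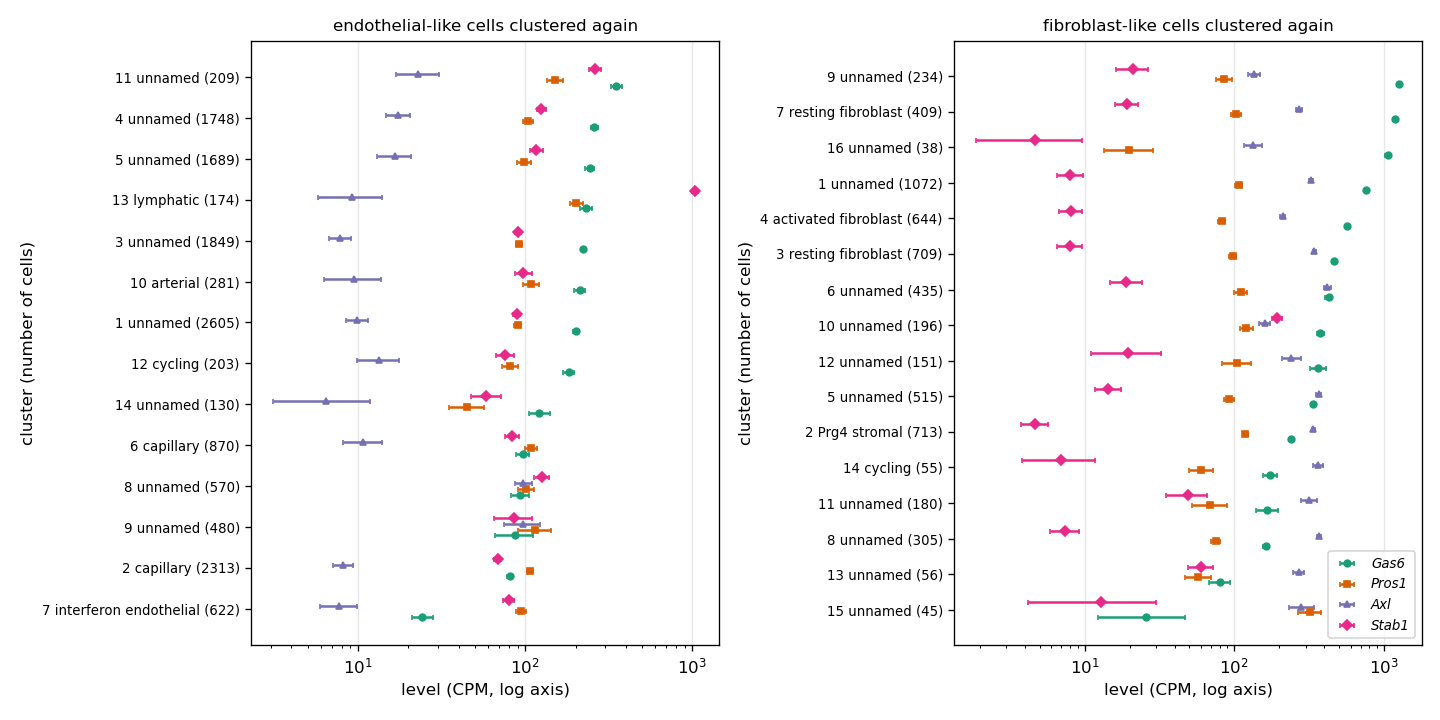
Level of *Gas6*, *Pros1*, *Axl* and *Stab1* (CPM, log axis) in clusters of endothelial-like cells and of fibroblast-like cells (rows, ordered by *Gas6*, with the number of cells), with exact Poisson 95% intervals. *Stab1* reaches 1034 CPM in lymphatic-like cells. *Gas6* spans 25.6 to 1260 CPM across the clusters of fibroblast-like cells, the lowest value being that of a cluster with Schwann cell markers.

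The clusters of fibroblast-like cells, some of which had markers of other cell types, differed widely in *Gas6*. It was at 1260 CPM (1221 to 1299) in 234 cells led by *Ptgds* and *Wif1*, 1183 CPM (1157 to 1211) in the 409 cells of resting fibroblast-like cluster 7 and 1067 CPM in 38 cells with mesothelial markers. Activated fibroblast-like cluster 4 had 570 CPM and cluster 3, named from the resting markers *Pi16*, *Cd248* and *Smoc2* but with activated markers at 3895 CPM against 3088 CPM for resting ones, had 467 CPM. The 713 *Prg4*-rich stromal cells of library 2 had 239 CPM, and the 305 cells of cluster 8, of library 4, had 163 CPM. Cluster 7 held 275 cells of library 1 and 133 of library 3, and the part of library in these values was not tested. *Axl* ranged from 134 to 420 CPM over the same clusters, a narrower range than that of *Gas6*. A cluster with Schwann cell markers had 320 CPM of *Pros1* with 25.6 CPM of *Gas6*, and a cluster with endothelial markers had 195 CPM of *Stab1*.

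A list of 44 other genes of apoptotic cell uptake was counted in the same comparisons, of which 33 reached 10 CPM in resident macrophage-like or monocyte-like cells. Of these 33, 12 were higher in resident macrophage-like than in monocyte-like cells, beside 9.45% of all genes tested, and 1 was lower, beside 7.86%. The median log2 ratio of the 33 was 0.50, against 0.03 over all genes. For example, *Vkorc1* reached 10 CPM in resident macrophage-like cells alone and *Scarf1* in monocyte-like cells alone, so this median is a description. Among uptake receptors and bridging proteins, the integrin chain *Itgb5* was at 270 against 12 CPM (ratio 12.7), its partner *Itgav* at 105 against 32.3 CPM (2.73), the lipid scavenger receptor *Cd36* at 133 against 18.0 CPM (5.12) and *Lrp1* at 259 against 118 CPM (2.10). *Mfge8*, which bridges phosphatidylserine to these integrins, had a ratio of 2.51. Endothelial-like cells had 2368 CPM of *Cd36* and 287 CPM of *Mfge8*. Endothelial markers summed to 652, 980, 552 and 82.3 CPM in macrophage-like cells of libraries 1 to 4, against 12522 to 35635 CPM in endothelial-like cells. The part of endothelial RNA in the *Cd36* and *Mfge8* values was not tested. The cholesterol exporter *Abca1* was at 284 against 13.1 CPM (12.7), with the nuclear receptors *Rxra* (2.22) and *Pparg* (2.05) also higher. The liver X receptors *Nr1h3* (14.8 against 32.1 CPM, 0.589) and *Nr1h2* (54.8 against 92.0 CPM, 0.635), known regulators of *Abca1*, had lower values that did not pass 2-fold. Among macrophage transcription factors, *Maf* was higher at 337 against 83.8 CPM (3.70) and *Spic* at a ratio of 2.16, whereas *Spi1* had 467 against 794 CPM (0.593), which did not pass 2-fold. *Vkorc1*, which recycles the vitamin K that activates GAS6 and protein S, was at 47.4 against 5.59 CPM (3.68). *Scarf1*, a scavenger receptor, was the gene that was lower, at 5.44 against 37.9 CPM (0.322).

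Against inflammatory macrophage-like cells 11 of 33 genes were higher, beside 7.57% of all genes, and 2 were lower, beside 6.09%, *Scarf1* and *Nr1h3* (14.8 against 64.4 CPM). Across classes, 36 of the 44 reached 10 CPM. Macrophage-like cells had 8 of 36 higher and 9 lower than all other cells, beside 9.02% and 20.2% of all genes. Fibroblast-like cells had 8 higher and 12 lower, beside 9.68% and 13.5%, the higher ones including *Lrp1* (729 CPM), *Itgb5* (377 CPM) and the phosphatidylserine-binding annexin *Anxa1* (322 CPM), beside *Vkorc1* and the carboxylase *Ggcx*. Endothelial-like cells had 5 higher and 12 lower, beside 9.99% and 12.4%, with *Cd36* at 2368 CPM (ratio 13.1). In pericyte-like and smooth muscle-like cells *Mfge8* was the 1 gene higher, at 924 against 138 CPM (6.30), beside 7.23%, and 7 were lower, beside 8.81%.

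**Figure D5:**
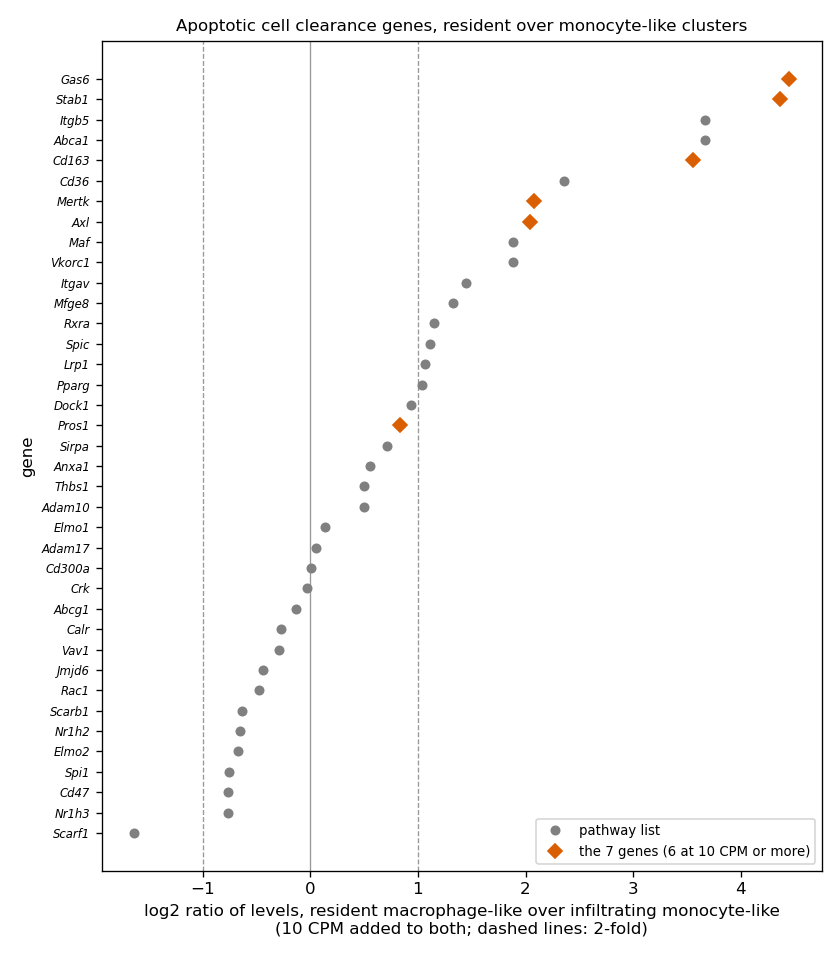
Log2 ratio of CPM with 10 CPM added, resident macrophage-like over monocyte-like cells, for the 6 of the 7 genes (diamonds) and the other uptake genes (circles, 1 left out) that reached 10 CPM in either group, with dashed lines at 2-fold. Of the 7 genes 5 lie at or beyond a 2-fold higher level, with *Gas6* at a ratio of 21.9, and *Scarf1* alone lies beyond 2-fold on the lower side.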

How the data were processed

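Cells of 4 mouse heart grafts were profiled with the 10x Genomics 3′ kit, 1 graft per library. Per the labels, the authors demultiplexed reads with CASAVA 1.8 and aligned them to mm10 with Cell Ranger (3.0.0 in the matrix header), and they deposited 1 pooled matrix of UMI counts per gene and cell. Cells with at least 200 genes and at most 20% mitochondrial UMIs were kept, and the 5% with the highest simulated doublet score in each library were removed. Counts were scaled to 10000 UMIs, log transformed and clustered (2000 variable genes without the 7 members and the 44 listed genes, 10 principal components, 30 neighbours, Leiden resolution 0.8, and 0.5 within macrophage-like and dendritic-like, endothelial-like and fibroblast-like cells). Clusters were named from marker lists, needing at least 3 markers of a class. A marker counted where at least 10% of the cells in the cluster held it. It also had to be raised at least 2-fold against the remaining clusters, so detection alone gave no name. A cluster stayed unnamed where its 10 leading genes held more markers of a different class. Clusters far shallower than their library stayed unnamed unless they had a marker among their 10 leading genes. Libraries had 96020294 to 166079145 UMIs.

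Levels are summed counts per 1000000 non-mitochondrial UMIs (CPM). Intervals are exact Poisson, or Clopper-Pearson for shares, at 95%. A gene was called where the ratio with 10 CPM added was 2 or more, among genes with at least 10 CPM in either group. Since no source pairs cells with grafts, the matrix counts as 1 sample and no test was run, and the scripts were tested on simulated data. The genes and lists were chosen with earlier results of these data known. Genes named are the 7 members, listed uptake genes past 2-fold or at 100 CPM or more in a class, the 3 genes most like each member, and markers (1 listed gene and 1 gene like a member are counted but not reported here); the leading genes of clusters were chosen after their values were seen. Alternatives were the cell filters, doublet removal, resolution, principal components, thinning to 1000 UMIs, equal library weights, the CPM added, leaving out each library and, chosen after seeing the data, each resident cluster alone. Tools were Python 3.11.15, numpy 2.4.6, scipy 1.17.1, scikit-learn 1.9.0, igraph 0.11.9 and leidenalg 0.10.2.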

Additional observations from a re-analysis of the deposited data

How the results depend on the processing

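With 1 pooled sample no result has a replicate check, and depth limits *Timd4* most, with 212 UMIs in all kept cells. Leaving out 1 library gave 7 to 7 genes for resident over monocyte-like cells (without libraries 1 and 3; no monocyte-like cluster without library 4, nor at 1000 UMIs per cell, and no resident cluster without library 2), 3 to 6 over inflammatory macrophage-like cells, 1 to 3 in macrophage-like, 0 to 1 in endothelial-like, 2 to 2 in fibroblast-like and 0 to 2 in pericyte-like and smooth muscle-like cells. Without library 3 macrophage-like cells had 1 gene higher, and without library 4 the count over inflammatory macrophage-like cells was 3, with *Axl* at a ratio of 0.384, its direction turned (0.384 to 1.82 over the libraries left out, where the resident cells were nearly all of library 2 and, without library 4, the inflammatory cells were 285 cells nearly all of libraries 1 and 3). Leaving out 1 library, the share of all genes called was 11.5% for resident over monocyte-like cells and 6.42% to 10.4% over inflammatory macrophage-like cells. In the classes it was 8.30% to 9.18% (macrophage-like), 8.28% to 10.9% (endothelial-like), 8.75% to 10.2% (fibroblast-like) and 5.14% to 8.46% (pericyte-like and smooth muscle-like). The count in pericyte-like and smooth muscle-like cells was 0 as reported, beside 7.23% of genes. It was 2 with cells thinned to 1000 UMIs (7.68%), 1 with libraries weighted equally (6.04%) and 2 with 1 CPM added (10.9%). With 50 CPM added, macrophage-like cells had 0 genes higher, beside 4.73% of genes, and the count over inflammatory macrophage-like cells was 3, beside 2.17%. The cause of these moves was not tested. Of the counts under all alternatives, 92 stayed within 1.5 times of the reported value and 13 moved beyond it, while of the single levels and ratios 593 stayed within the counting interval of the reported value, 554 moved outside it and 1 turned its direction. No paired analysis was possible because the cells could not be assigned to grafts and no test between groups was made.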

Other observations

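Within resident macrophage-like cluster 4, detection of the genes in single cells was compared after thinning 1166 of its 1267 cells to 5000 UMIs each, the rest being shallower. *Stab1* was detected in 89.9% (87.2% to 92.1%, Clopper-Pearson) of cells with *Gas6* and in 62.4% (58.2% to 66.5%) of cells without it. *Cd163* was detected in 12.9% of cells with *Gas6* and 2.57% without. *Gas6* was found in 64.5% of cells with *Mertk* and 49.2% without, but in 43.9% of cells with *Axl* and 59.9% without. In fibroblast-like cells *Gas6* was found in 60.1% of cells with *Axl* and 69.7% without, and in 64.2% of cells with *Mertk* and 62.9% without. In the 132 cells of cluster 11 it was found in 12 of 40 cells with *Mertk* and 25 of 92 without, and in 9 of 37 with *Axl* and 28 of 95 without, with overlapping intervals. Cluster 4 is shared by cells of libraries 1 and 3, and the fibroblast-like cells came from 4 libraries and many clusters. Of the libraries, fibroblast-like cells of library 4 had the highest *Axl* (344 CPM) and the lowest *Gas6* (138 CPM). *Axl* was lowest in library 3 (271 CPM) and *Gas6* highest in library 1 (759 CPM). The part of library and cluster in these shares was not tested.

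Over 52 groups, the 7 named classes that were not clustered again and every cluster of the others, named or not, the genes whose log2(CPM + 10) followed each member most closely by Pearson's r are given as a description, since the groups share libraries and cells. *Mertk* was followed most closely by *Frmd4b* (0.77), *Rreb1* (0.73) and *Slc12a7* (0.71), and *Axl* by *Rnd3* (0.90), *Cbr3* (0.87) and *Olfml3* (0.87). *Gas6* was nearest to *Nfia* (0.91), *Smo* (0.90) and *Serpinb6a* (0.89), and *Pros1* to *Rhoj* (0.92), *Pttg1ip* (0.90) and *Mex3d* (0.90). The nearest genes were *Ccl22* (0.87), *Flt3* (0.82) and *Ears2* (0.78) for *Timd4*, *Ltc4s* (0.80) and *Dab2* (0.78) for *Stab1*, and *Cxcl13* (0.86), *Ppbp* (0.83) and *Ccl24* (0.82) for *Cd163*. Among the members themselves *Gas6* and *Pros1* had 0.71, *Mertk* and *Stab1* 0.66, *Gas6* and *Axl* 0.50, and *Stab1* and *Cd163* 0.48.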
